A study of Homo sapiens with 6 samples.

Results

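The genes of glycolysis and lactate export were examined in SW839, an established line of human renal cell carcinoma, after knockdown of the ubiquitin ligase RNF25. The list holds 33 of the 30267 genes in the deposited table and was matched by symbol; it spans glucose uptake, the enzymes from hexokinase to pyruvate kinase, their fructose-2,6-bisphosphate regulators, lactate dehydrogenase and the lactate carriers, the pyruvate dehydrogenase kinases and 4 enzymes that lead to glycogen. Of these, 32 passed the filter on low values, among 16554 genes tested. The exception was SLC2A3, a neuronal-type glucose transporter, with at most 3 reads in any library.

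Ribosomal RNA-depleted total RNA was sequenced from 3 libraries of cells carrying the RNF25 hairpin (shRNF25) and 3 libraries of cells carrying the pLKO control vector (shControl), named in the design text as biological triplicates. According to the methods, pLKO constructs were delivered by lentivirus and infected cells were selected in puromycin, so both groups carried a vector and had been selected; the libraries are given under 1 hairpin name, so an effect of that hairpin apart from RNF25 cannot be told apart here. The shRNF25 plasmid is named in the treatment text of the control samples as well, and the library names of the controls do not share a common form whereas those of shRNF25 do. Groups were therefore taken from the titles, and whether the control libraries were made together cannot be told from the labels.

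Glycolysis splits glucose into pyruvate in the cytosol and yields ATP without oxygen. Many of its enzymes exist as isozymes encoded by separate genes, several of which are known targets of the hypoxia-inducible factors HIF-1 and HIF-2, transcription factors that are often stabilised in renal cell carcinoma through loss of VHL. Pyruvate is then either reduced to lactate by lactate dehydrogenase and exported through monocarboxylate carriers, or oxidised by pyruvate dehydrogenase, which the pyruvate dehydrogenase kinases switch off.

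Levels are given as normalized counts, the reads of a gene divided by the size factor of its library, in the order of replicates 1, 2 and 3. Log2 fold changes compare shRNF25 with shControl after a pseudocount of 1 was added, with the standard error and 95% interval from limma. The targeted transcript was checked first. RNF25 had normalized counts of 694, 534 and 536 in shControl and 214, 246 and 265 in shRNF25, a log2 fold change of -1.27 (SE 0.150, adjusted p = 0.000585, limma with Benjamini-Hochberg adjustment over all tested genes). Between 18647460 and 19943154 reads were counted on genes per library. The deposited size factors ran from 0.905 to 1.10, and the normalized counts of all genes summed to 20125900 to 22046000 in shControl and 17668700 to 18251000 in shRNF25. The renal epithelial list included KRT8 at 22206 to 38009, KRT18 at 15768 to 18790 and PAX8 at 76.7 to 140 normalized counts, with 1 of 5 tested members (VIM, an intermediate filament) higher and none lower in shRNF25; the list summed to 38706 to 50244 in shControl and 53951 to 57819 in shRNF25. Of 9 blood and endothelial markers 3 were tested and 1 was lower, the endothelial cadherin CDH5 with 73.0, 103 and 199 in shControl and 3.64, 8.31 and 5.72 in shRNF25; the summed level of that list was 482 to 691 and 432 to 579. Of 5 fibroblast markers 2 were tested and neither met both criteria (summed level 1107 to 1291 and 865 to 1012). The leukocyte marker PTPRC had at most 16 reads in a library. PECAM1, of the same list, had 350 to 549 normalized counts over the 6 libraries, and COL1A1, of the fibroblast list, had 848 to 1258. The part of these markers in the results was not tested.

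Promoter windows of the 5 genes with the largest falls are shown because several hypoxia-responsive genes of this pathway are known to carry the core of the hypoxia response element next to their start. RefSeq sequences of GRCh38.p14 were used, each running from 250 bases before to 50 bases after an annotated start, 5′ to 3′ on the strand of the gene, and where a gene had several windows the one nearest to its GENCODE start was taken. Capitals mark ACGTG or GCGTG on either strand, so that their reverse complements CACGT and CACGC are also capitalised; the palindrome CACGTG, an E-box, holds 1 match on each strand. The windows lie at chr2:172555123-172555422 on the plus strand (PDK1), chr1:42958819-42959118 on the minus strand (SLC2A1), chr10:3067720-3068019 on the plus strand (PFKP), chr17:28576846-28577145 on the minus strand (ALDOC) and chr11:18394313-18394612 on the plus strand (LDHA).
PDK1: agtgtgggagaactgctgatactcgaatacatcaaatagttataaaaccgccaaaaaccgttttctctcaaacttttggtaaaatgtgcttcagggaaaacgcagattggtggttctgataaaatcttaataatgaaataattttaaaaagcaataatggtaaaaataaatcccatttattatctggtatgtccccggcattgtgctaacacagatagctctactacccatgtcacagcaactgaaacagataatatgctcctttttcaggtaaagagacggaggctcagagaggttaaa
SLC2A1: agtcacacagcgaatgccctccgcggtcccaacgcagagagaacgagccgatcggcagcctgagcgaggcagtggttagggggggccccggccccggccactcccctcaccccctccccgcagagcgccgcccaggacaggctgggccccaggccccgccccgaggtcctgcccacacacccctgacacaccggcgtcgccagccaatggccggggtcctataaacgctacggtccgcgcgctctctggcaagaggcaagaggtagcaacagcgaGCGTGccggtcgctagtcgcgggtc
PFKP: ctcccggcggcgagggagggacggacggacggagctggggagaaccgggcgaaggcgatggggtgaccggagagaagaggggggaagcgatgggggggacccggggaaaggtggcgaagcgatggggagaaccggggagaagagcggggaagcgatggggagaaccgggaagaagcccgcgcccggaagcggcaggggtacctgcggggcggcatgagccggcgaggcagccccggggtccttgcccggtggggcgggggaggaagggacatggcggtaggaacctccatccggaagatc
ALDOC: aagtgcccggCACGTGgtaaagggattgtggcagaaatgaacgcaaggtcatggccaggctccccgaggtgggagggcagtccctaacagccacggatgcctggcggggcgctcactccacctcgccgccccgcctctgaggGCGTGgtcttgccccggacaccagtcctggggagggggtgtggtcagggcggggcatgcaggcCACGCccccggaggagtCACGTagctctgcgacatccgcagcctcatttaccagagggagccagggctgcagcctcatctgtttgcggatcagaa
LDHA: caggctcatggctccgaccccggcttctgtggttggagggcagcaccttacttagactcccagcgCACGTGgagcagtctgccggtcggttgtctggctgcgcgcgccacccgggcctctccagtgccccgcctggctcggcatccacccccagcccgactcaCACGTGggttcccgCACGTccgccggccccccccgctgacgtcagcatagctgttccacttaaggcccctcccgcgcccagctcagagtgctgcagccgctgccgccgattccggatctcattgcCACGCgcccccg
The LDHA window held 6 matches, including 2 CACGTG palindromes, and the ALDOC window held 5, including 1 palindrome. The SLC2A1 window held 1 match, and the PDK1 and PFKP windows held 0. PDK1 has 2 windows and PFKP 4, and the richest of them held 2 and 3 matches.

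Windows were found for 30 of the 33 genes; SLC2A3, PFKFB2 and SLC16A1 were not matched. At least 1 match stood in the nearest window of 9 of the 12 genes that fell and of 12 of the other 18, and at least 3 matches stood in 3 of each. The start of the nearest window was not always close to the GENCODE start of the gene. It lay 193509 bases away for PGK1, 100015 for LDHB, 5512 for GPI, 5212 for PFKFB4 and 1637 for PFKP. Over all 60 windows of these genes, 63.3% held at least 1 match and 13.3% held a CACGTG, against 48.4% and 7.26% of all 35116 windows of the same length. A match is a string of letters and not a site of binding.

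In shRNF25, 12 of the glycolysis and lactate export genes fell and 0 rose by the criteria of the study's methods, an adjusted p below 0.05 together with a change of 1.5-fold or more. The 12 make up 37.5% of the 32 tested genes, where 7.1% of all tested genes were lower and 8.65% were higher by the same criteria. They were SLC2A1, PFKP, PFKFB4, ALDOA, ALDOC, PGK1, BPGM, LDHA, PDK1, PDK3, PDK4 and GYS1. Another 7 genes (HK1, HK2, GPI, PFKFB3, TPI1, GAPDH and PGAM1) were lower at an adjusted p below 0.05 with a smaller fold, which makes 19 of 32 (59.4%) against 10.8% of all tested genes. The remaining 13 did not pass. The median log2 fold change was -0.50 for the 32 genes and -0.01 for all tested genes, and 29 of the 32 lay below 0.

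For 21 of the 32 genes (65.6%) all 3 knockdown libraries lay below all 3 controls, against 21.8% of all tested genes. PFKFB2 was the only one of the 32 with all 3 knockdown libraries above the controls, a pattern seen in 20.7% of all tested genes. With 3 libraries against 3, the two-sided exact permutation test of a single gene cannot give a p below 0.1, which each of these 22 genes reached.

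**Figure D1:**
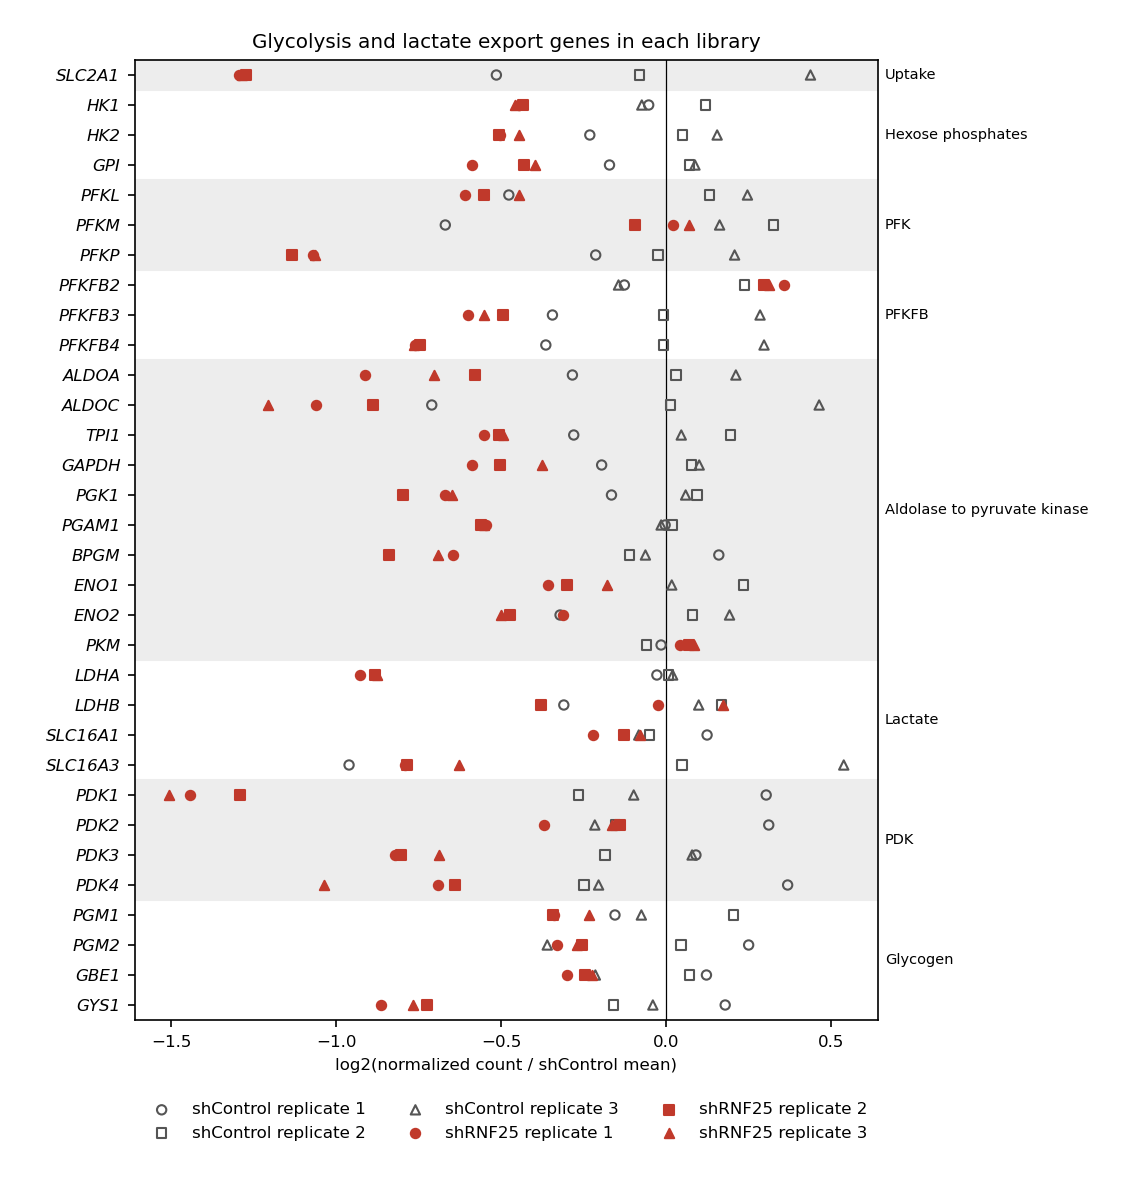
Normalized count of each of the 32 tested genes in each library, as the log2 ratio to the mean of the 3 shControl libraries (x axis), grouped by step of the pathway; open grey symbols are shControl and filled red symbols are shRNF25, with 1 symbol shape for each replicate number. The shRNF25 symbols lie left of all shControl symbols for 21 genes, shControl replicate 1 (open circles) is the lowest control for 19 genes, and the shRNF25 symbols lie closer together than the controls for most genes.

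The size of these differences depended on how libraries were scaled. The deposited scaling uses the median ratio of each gene to its mean, whereas scaling to the total reads on genes moved the median of all tested genes upward by 0.20 on the log2 scale. Under that scaling, chosen after the data had been seen, 4 of the 12 genes met both criteria (SLC2A1, PFKP, LDHA and PDK1), 9 genes, these 4 included, were lower at an adjusted p below 0.05, and PFKFB2 was higher at that threshold with a fold under 1.5 (log2 fold change 0.54, limma adjusted p = 0.0203). The median of the 32 genes was then -0.30 and that of all tested genes 0.19, and the difference between these medians was -0.49 under either scaling. A change of scaling moves all genes by nearly the same amount, so this difference could hardly change and is not a check of the result. Among all tested genes, 1175 were lower and 1432 higher under the deposited scaling, against 684 lower and 2377 higher under total reads.

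**Figure D2:**
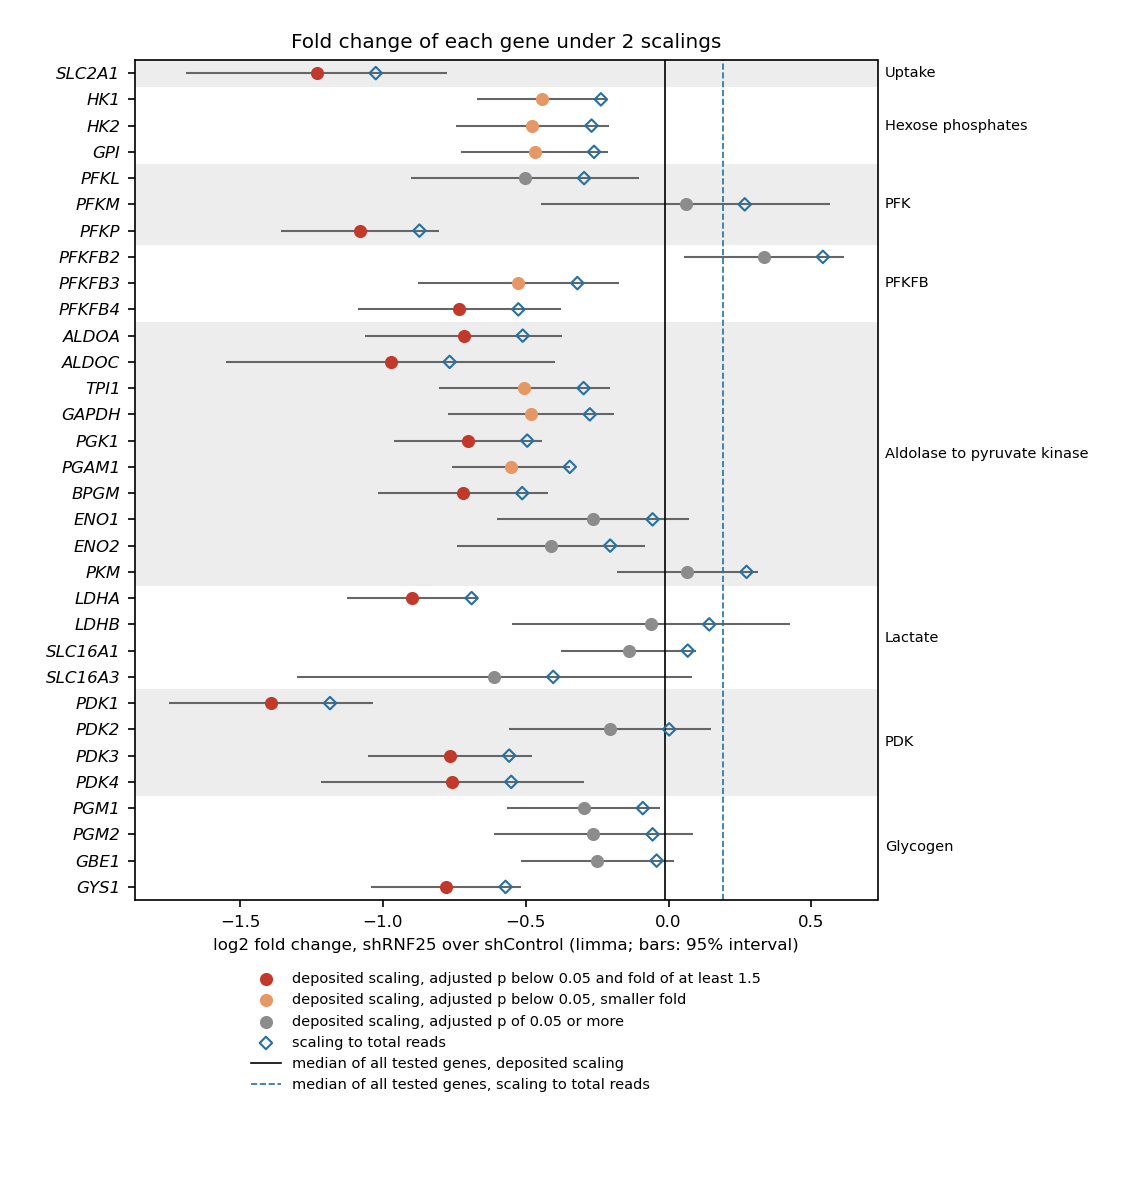
Log2 fold change of shRNF25 over shControl (x axis) for each of the 32 tested genes; filled circles are limma estimates under the deposited scaling with 95% intervals as bars, coloured by the criteria met, and open blue diamonds are the estimates under scaling to total reads. The solid and dashed vertical lines mark the medians of all tested genes, -0.01 and 0.19, and the diamonds stand to the right of the circles by about the distance between the lines.

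The controls varied more than the knockdown libraries. The SD of the log2 values was larger in shControl for 30 of the 32 genes, as it was for 83.2% of all tested genes. The lowest control library was replicate 1 for 19 genes, replicate 2 for 6 and replicate 3 for 7, where replicate 1 was the lowest control for 39.5% of all tested genes. In 9 genes the highest control was at least 1.5 times the lowest, whereas the largest such ratio within shRNF25 was 1.47 (LDHB). As a share of all reads on genes, the 33 genes took 1.20%, 1.54% and 1.57% in the shControl libraries and 1.21%, 1.20% and 1.26% in the knockdown libraries, in the order of their replicate numbers. The share of shControl replicate 1 therefore lay within the shRNF25 range, while those of the other controls lay above it. PKM, GAPDH, ENO1, LDHA and PGK1 supplied 67.1% to 71.4% of the reads of the list in each library.

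**Figure D3:**
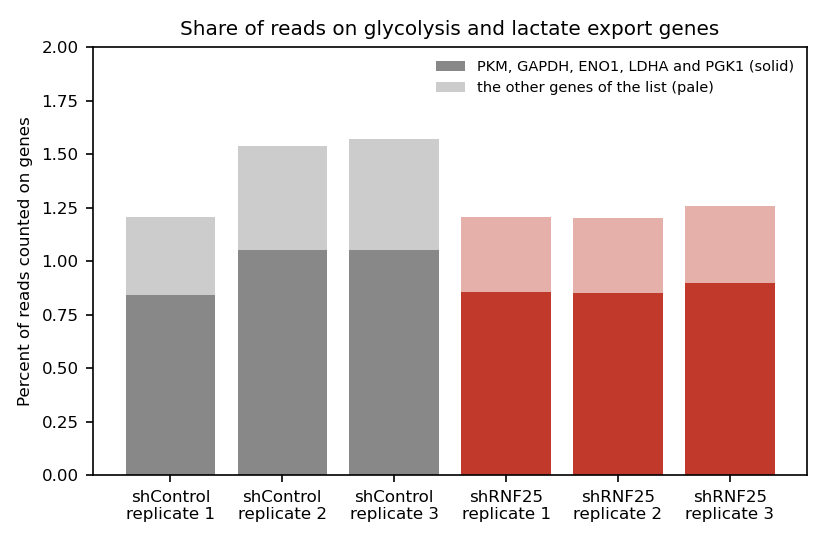
Percent of all reads counted on genes that fell on the 33 genes in each of the 6 libraries (bars start at 0); the solid part is PKM, GAPDH, ENO1, LDHA and PGK1 and the pale part the other genes, with shControl in grey and shRNF25 in red. shControl replicate 1 stands at 1.20%, level with the 3 shRNF25 libraries at 1.20% to 1.26%, below the other controls at 1.54% and 1.57%.

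SLC2A1 (GLUT1; chromosome 1, 42925375 to 42959176, minus strand), the main glucose carrier of most proliferating cells, had normalized counts of 6309, 8525 and 12209 in shControl and 3676, 3728 and 3696 in shRNF25. The controls spread over a 1.94-fold range, yet the lowest of them stood well above the tight knockdown group. The mean was 9014 ± 2980 in shControl and 3700 ± 26.5 in shRNF25 (SD, n = 3), or -1.23 as a log2 fold change (SE 0.203, limma adjusted p = 0.00327), and both criteria were met under all 17 alternatives of processing. The value without shControl replicate 3 was the smallest when a library was left out (-0.99).

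The 3 genes that turn glucose into fructose-6-phosphate moved by similar amounts. HK1 and HK2, the hexokinases that trap glucose in the cell, had log2 fold changes of -0.44 (SE 0.101, limma adjusted p = 0.0142) and -0.48 (SE 0.119, adjusted p = 0.0213). HK1 counted 8828, 9945 and 8701 in shControl and 6724, 6772 and 6665 in shRNF25, without overlap. GPI, the isomerase that follows, was at -0.47 (SE 0.114, limma adjusted p = 0.0191). None of these reached a 1.5-fold change with all 6 libraries, and none kept an adjusted p below 0.05 under total-read scaling, under quantile normalization or without any 1 of the shRNF25 libraries. Without shControl replicate 1, HK2 met both criteria (-0.59, limma adjusted p = 0.000347).

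Phosphofructokinase, the committed step of glycolysis, is encoded by PFKL, PFKM and PFKP, named for liver, muscle and platelet. PFKP (chromosome 10, 3066333 to 3137712, plus strand) had 4285, 4884 and 5737 normalized counts in shControl and 2367, 2262 and 2377 in shRNF25. Each knockdown library was below each control, with a log2 fold change of -1.08 (SE 0.122, limma adjusted p = 0.000492), and the gene met both criteria under all 17 alternatives. PFKM had 1387, 2764 and 2469 in shControl and 2238, 2069 and 2315 in shRNF25, so the knockdown libraries fell inside the control range; its log2 fold change was 0.06 with a 95% interval of -0.45 to 0.57, and -0.24 without shControl replicate 1 (limma adjusted p = 0.0463). PFKL had 6080, 9269 and 10040 against 5547, 5770 and 6213, with an overlap through shControl replicate 1 (log2 fold change -0.50, limma adjusted p = 0.0734). Without that control PFKL met both criteria (-0.72, limma adjusted p = 0.000237), the only 1 of the 17 alternatives in which it did. Under total-read scaling PFKL was at -0.30 (limma adjusted p = 0.311). For PFKM, too, leaving out shControl replicate 1 was the only 1 of the 17 with an adjusted p below 0.05.

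Per kilobase of annotated exon, PFKP and PFKL were at 1027 ± 151 and 948 ± 235 normalized counts per kb in shControl, and PFKM at 302 ± 99.1 (SD, n = 3). All annotated exons of a gene are counted, 8926 bases for PFKL, 4836 for PFKP and 7318 for PFKM. The longest protein-coding transcripts have 2912, 2769 and 3226 bases, so the order of PFKL and PFKP depends on the length used. In shRNF25 PFKL led with 655 ± 38.0, PFKP had 483 ± 13.2 and PFKM 302 ± 17.2.

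The bifunctional enzymes PFKFB2, PFKFB3 and PFKFB4 make or remove fructose-2,6-bisphosphate, the strongest activator of phosphofructokinase. PFKFB4 had 1199, 1537 and 1897 normalized counts in shControl and 910, 921 and 908 in shRNF25, with no overlap (log2 fold change -0.73, SE 0.158, limma adjusted p = 0.0111). Its adjusted p was 0.0563 without shRNF25 replicate 1 and 0.0517 without shRNF25 replicate 3, and its fold fell under 1.5 without shControl replicate 3 (-0.57). PFKFB3, a hypoxia-inducible isoform, was lower with a smaller fold (-0.53, SE 0.156, limma adjusted p = 0.0412); that p was above 0.05 without any 1 library other than shControl replicate 1 (0.0754 to 0.151), and without that library PFKFB3 met both criteria (-0.69, adjusted p = 0.00083). PFKFB2 went the other way: 1613, 2077 and 1593 in shControl and 2256, 2164 and 2186 in shRNF25. The groups of PFKFB2 did not overlap, but its log2 fold change of 0.33 (SE 0.124) had a limma adjusted p of 0.0879. That p was 0.0217 without shControl replicate 2, its highest control, and 0.259 without shRNF25 replicate 1.

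The steps from aldolase to pyruvate kinase are covered by 10 genes, of which 4 fell, 3 were lower with a smaller fold and 3 did not pass. ALDOC (chromosome 17, 28573115 to 28577264, minus strand), the brain-type aldolase, had 453, 749 and 1023 normalized counts in shControl and 355, 401 and 321 in shRNF25. Its controls spread over a 2.26-fold range and the lowest stood only a little above the highest knockdown library. The log2 fold change was -0.97 (SE 0.256, limma adjusted p = 0.0257), ranging from -0.70 to -1.29 as single libraries were left out; the adjusted p was 0.059 to 0.101 without shControl replicate 2 or without any 1 of the shRNF25 libraries. ALDOA, the aldolase of muscle and most other tissues, had 752, 935 and 1060 against 486, 612 and 562 (-0.72, SE 0.153, limma adjusted p = 0.0104), and without shRNF25 replicate 1 the adjusted p was 0.064. Its counts are uncertain, because 42.3% of its exon bases lie within AC093512.2 on the same strand and 88.1% of the 50-base words of its longest protein-coding transcript also occur in other genes; AC093512.2 itself had 51.5 ± 7.02 and 48.7 ± 8.05 normalized counts (SD, n = 3).

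PGK1, which makes the first ATP of the pathway, had 19051, 22798 and 22265 normalized counts in shControl and 13419, 12293 and 13620 in shRNF25. The groups were apart in every library, with a log2 fold change of -0.70 (SE 0.114, limma adjusted p = 0.0031). BPGM, which makes 2,3-bisphosphoglycerate, had 443, 367 and 380 against 253, 222 and 246 (-0.72, SE 0.132, limma adjusted p = 0.00525). PGAM1, the phosphoglycerate mutase of glycolysis, was among the steadiest genes, with 6370 ± 74.7 in shControl and 4342 ± 24.0 in shRNF25 (SD, n = 3); its log2 fold change of -0.55 (SE 0.0917, limma adjusted p = 0.00335) stayed under the 1.5-fold limit, and 43.1% of its 50-base words are shared with other genes, its pseudogenes and PGAM4 among them.

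TPI1, the triose isomerase, had a log2 fold change of -0.50 (SE 0.132, limma adjusted p = 0.0255), and GAPDH, the dehydrogenase often used as a reference gene, one of -0.48 (SE 0.129, adjusted p = 0.0274). GAPDH counted 46419, 56076 and 56982 in shControl and 35374, 37496 and 40984 in shRNF25, without overlap. Under quantile normalization the GAPDH difference was 0.05, and TPI1 and GAPDH each had an adjusted p above 0.05 under total-read scaling (0.188 and 0.214, limma) and without shControl replicate 2 or any 1 of the shRNF25 libraries. Without shControl replicate 1, TPI1 met both criteria (-0.64, limma adjusted p = 0.000482).

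Neither enolase passed. ENO1, the common form, had 33116, 47956 and 41259 normalized counts in shControl and 31803, 33117 and 35998 in shRNF25, with overlap (log2 fold change -0.26, limma adjusted p = 0.24). ENO2, the neuronal form, was at -0.41 (adjusted p = 0.0759). Without shControl replicate 1 the values were -0.40 for ENO1 (limma adjusted p = 0.022) and -0.56 for ENO2 (adjusted p = 0.0012). That library was the lowest control of both genes, and each had an adjusted p below 0.05 in only this 1 of the 17 alternatives. Under total-read scaling they were at -0.06 and -0.20 (limma adjusted p = 0.834 and 0.402). PKM, which makes pyruvate and the second ATP, had 46997, 45593 and 49919 in shControl and 48882, 49846 and 50335 in shRNF25. Its log2 fold change was 0.07, with a 95% interval of -0.18 to 0.31 that does not reach the values of PGK1 or LDHA; under quantile normalization PKM was higher (0.57, limma adjusted p = 0.00414).

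LDHA (chromosome 11, 18394388 to 18408425, plus strand), the subunit that favours pyruvate-to-lactate conversion, had 39977, 40993 and 41327 normalized counts in shControl and 21401, 22096 and 22203 in shRNF25. Both groups were tight, and the control libraries differed by only 1.03-fold at most. The means were 40766 ± 703 and 21900 ± 436 (SD, n = 3), the latter being 53.7% of the control, with a log2 fold change of -0.90 (SE 0.102, limma adjusted p = 0.0005). LDHA kept an adjusted p below 0.05 under all 17 alternatives and both criteria under 16 of them, the exception being quantile normalization (-0.55).

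LDHB, the subunit that favours the reverse reaction, was scarce, with 52.6 to 77.2 normalized counts over the 6 libraries and a log2 fold change of -0.06 (95% interval -0.55 to 0.43). Of its exon bases 33.4% lie within AC010197.2 on the same strand, and 58.5% of its 50-base words are shared, so its level is uncertain. The lactate exporter SLC16A3 (MCT4) had 3345, 6736 and 9462 normalized counts in shControl and 3763, 3775 and 4212 in shRNF25. The lowest of all 6 libraries was a control, replicate 1, and the 2.83-fold range of the controls covered the knockdown values (log2 fold change -0.61, SE 0.307, limma adjusted p = 0.189). Without shControl replicate 1 SLC16A3 met both criteria (-1.03, limma adjusted p = 0.000456), the only 1 of the 17 alternatives in which it did. Without shControl replicate 3 it was at -0.28 (limma adjusted p = 0.448). SLC16A1 (MCT1), a carrier that works in both directions, was at -0.14 with a 95% interval of -0.38 to 0.09.

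The pyruvate dehydrogenase kinases block entry of pyruvate into the citric acid cycle, and 3 of the 4 fell. PDK1 (chromosome 2, 172555373 to 172608669, plus strand), the hypoxia-inducible kinase, had 994, 670 and 752 normalized counts in shControl and 296, 329 and 283 in shRNF25. The lowest control stood far above the highest knockdown library. The mean fell to 37.6% of the control, with a log2 fold change of -1.39 (SE 0.159, limma adjusted p = 0.000506), the largest of the 32, and both criteria held under all 17 alternatives.

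PDK3 had 553, 457 and 548 against 293, 297 and 322 normalized counts (log2 fold change -0.76, SE 0.127, limma adjusted p = 0.00338). PDK4, a kinase induced by fasting, had 238, 155 and 160 against 114, 118 and 89.6 (-0.76, SE 0.204, limma adjusted p = 0.0288). Neither gene overlapped between groups, but the adjusted p of PDK4 was 0.068 to 0.128 without any 1 of the shRNF25 libraries, and its fold fell under 1.5 without shControl replicate 1 (-0.56). PDK2 did overlap, with 856, 620 and 594 in shControl and 533, 626 and 616 in shRNF25 (-0.20, limma adjusted p = 0.387), and 38.6% of its exon bases lie opposite SAMD14. Per kilobase of exon, PDK2 and PDK3 were the most abundant in shControl at 126 ± 26.3 and 105 ± 11.0 normalized counts per kb, PDK1 had 54.1 ± 11.3 and PDK4 40.7 ± 10.3 (SD, n = 3); in shRNF25 PDK1 was at 20.3 ± 1.58 and PDK4 at 23.7 ± 3.41, a difference within their spread. The order depends on the length used. PDK1 has 14883 annotated exon bases, PDK2 5481, PDK3 4951 and PDK4 4519. Without division by length PDK1 had the highest mean in shControl, at 805 ± 168 normalized counts against 690 ± 144 for PDK2.

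GYS1, the glycogen synthase of muscle and most other tissues, had 2805, 2218 and 2409 normalized counts in shControl and 1361, 1499 and 1456 in shRNF25. It fell without overlap (log2 fold change -0.78, SE 0.117, limma adjusted p = 0.00203). The phosphoglucomutases PGM1 and PGM2 (-0.30 and -0.26) and the branching enzyme GBE1 (-0.25) did not pass, with limma adjusted p from 0.107 to 0.257, although the groups of PGM1 and GBE1 did not overlap. Without shControl replicate 1 PGM1 was at -0.37 (limma adjusted p = 0.0138), and without shControl replicate 3 PGM2 was at -0.43 and GBE1 at -0.35 (adjusted p = 0.0308 and 0.0412). In each case the control left out was the lowest for that gene, so a larger fall was bound to follow. Each gene had an adjusted p below 0.05 in only this 1 of the 17 alternatives. Under total-read scaling PGM1, PGM2 and GBE1 were at -0.09, -0.06 and -0.04 (limma adjusted p = 0.640, 0.787 and 0.797).

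**Figure D4:**
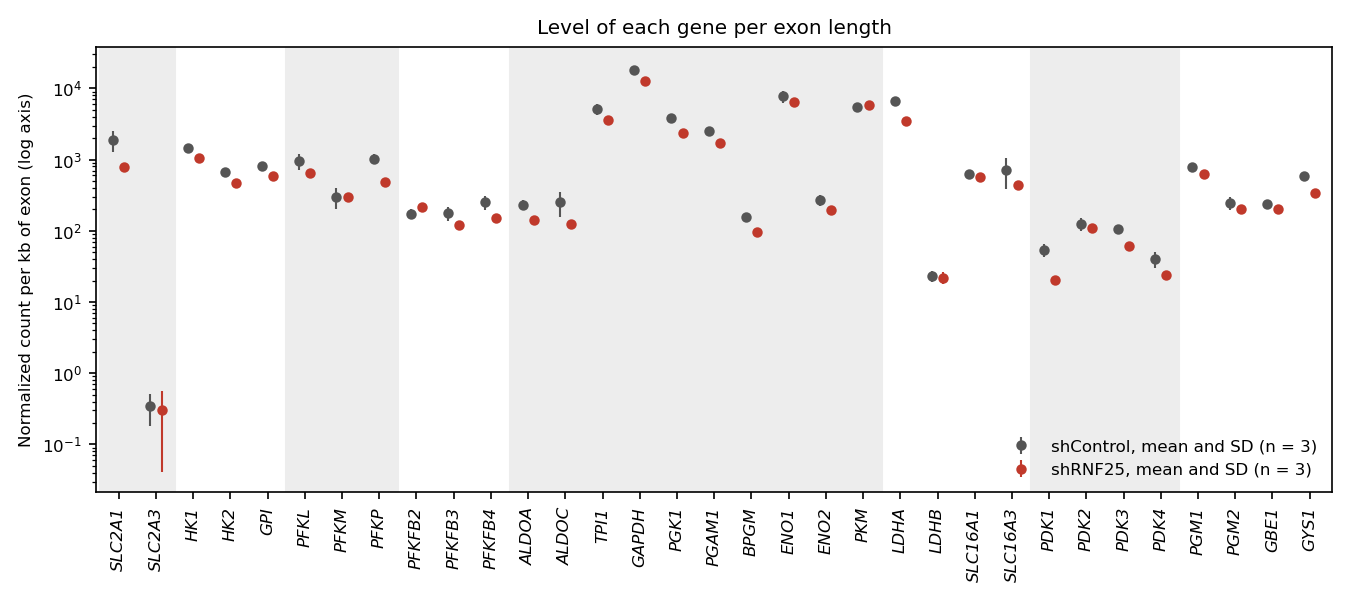
Mean normalized count per kilobase of annotated exon (log axis) for each of the 33 genes, with SD over 3 libraries as bars, shControl in grey and shRNF25 in red; shaded bands separate the steps of the pathway. GAPDH, ENO1, LDHA, PKM and TPI1 lead in shControl, and LDHA moves from 6565 to 3527, below PKM at 5797 and close to TPI1 at 3574.

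GAPDH was the most abundant of the list per kilobase of exon, at 17833 ± 1964 normalized counts per kb in shControl and 12731 ± 950 in shRNF25 (SD, n = 3). In shControl it was followed by ENO1 (7729 ± 1409), LDHA (6565 ± 113), PKM (5542 ± 257) and TPI1 (5117 ± 833). On this measure ENO1 and LDHA, and PKM and TPI1, lay within the spread between libraries. That spread does not cover the choice of gene length. PKM has 8571 annotated exon bases and a longest protein-coding transcript of 2717, where TPI1 has 2700 and 1763, so the order after GAPDH depends on the length used. In shRNF25 the order after GAPDH was ENO1 (6376 ± 407), PKM (5797 ± 86.2), TPI1 (3574 ± 75.9) and LDHA (3527 ± 70.1), the last pair again within their spread. SLC2A3, LDHB, PDK4 and PDK1 were the lowest in shControl, with SLC2A3 at 0.343 and LDHB at 23.0 per kb.

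Ratios of isozymes within a library do not depend on scaling between libraries. Of 13 pairs listed, 12 were compared, SLC2A1 with SLC2A3 being left out because SLC2A3 was at the floor of 3 reads. The groups did not overlap in 7 pairs, each at the smallest p that the two-sided exact permutation test allows (0.1, or 0.171 after adjustment over the 12 pairs). No pair could pass at this size. Among single tested genes, 21.8% had all knockdown libraries below the controls and 20.7% had all above. No such share was computed for ratios of other genes. Several of the 7 pairs share PFKL, PFKM, PFKP or PDK1, so they are not separate observations.

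The log2 ratio of PFKM to PFKP was -1.63, -0.82 and -1.22 in shControl and -0.08, -0.13 and -0.04 in shRNF25, a difference of 1.14. PFKP made up 77.7% ± 4.80 of the sum of PFKM and PFKP per kilobase of annotated exon in shControl and 61.6% ± 0.743 in shRNF25 (SD, n = 3). The size of this share depends on the gene lengths used. PFKL moved by 0.58 against PFKP and by -0.56 against PFKM, so the 3 forms changed relative to one another in every library.

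PDK1 moved by -1.19 against PDK2 and by -0.63 against PDK3, without overlap. The LDHA to LDHB log2 ratio was 9.47, 9.04 and 9.12 in shControl and 8.29, 8.69 and 8.15 in shRNF25, a difference of -0.83 that rests on the 50 to 81 reads of LDHB. PFKFB3 to PFKFB4 differed by 0.21, small but with very close replicates. The pairs HK1 and HK2 (0.03), ENO1 and ENO2 (0.15), ALDOA and ALDOC (0.26), PGM1 and PGM2 (-0.03) and SLC16A1 and SLC16A3 (0.47) overlapped, with exact permutation p from 0.3 to 1.

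**Figure D5:**
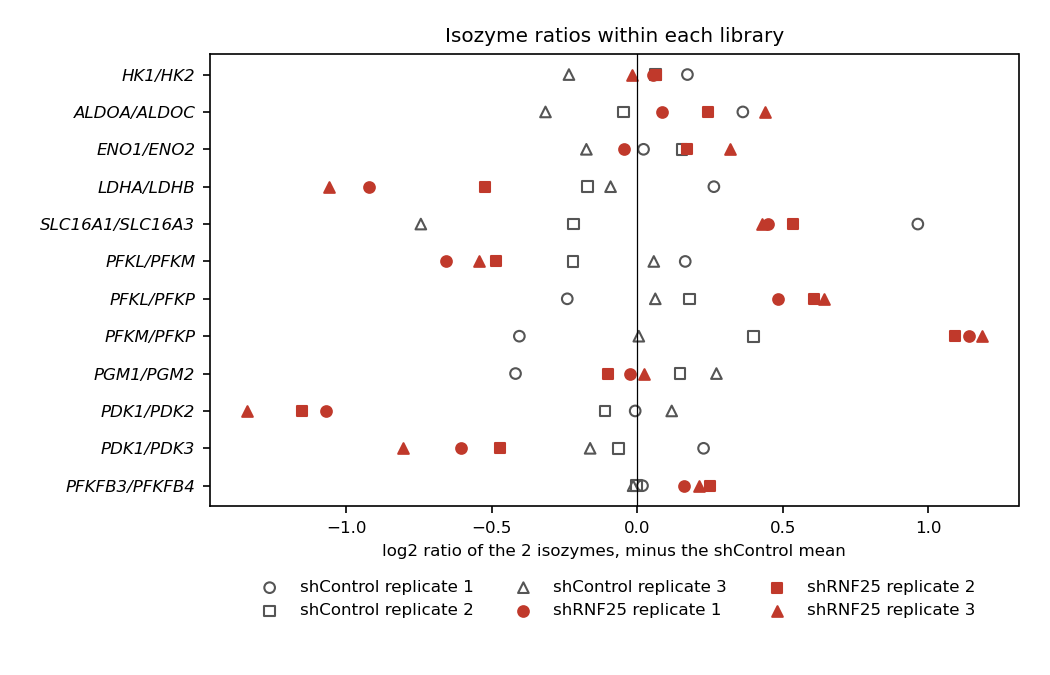
Log2 ratio of the 2 isozymes named on each line within each library, minus the mean of the 3 shControl libraries (x axis), for 12 pairs; open grey symbols are shControl, filled red symbols shRNF25, with 1 shape for each replicate number. The 7 pairs without overlap are PFKM/PFKP (1.14), PFKL/PFKP (0.58), PFKFB3/PFKFB4 (0.21), PFKL/PFKM (-0.56), PDK1/PDK3 (-0.63), LDHA/LDHB (-0.83) and PDK1/PDK2 (-1.19).

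Genes next to glycolysis were counted from lists of the neighbouring routes, to be read against the 7.1% of all tested genes that were lower and the 8.65% that were higher; a single gene in a list of this size is near those shares. Of 11 tested other isozymes of glycolysis and gluconeogenesis, 0 were lower and 1 was higher, TIGAR, which removes fructose-2,6-bisphosphate (log2 fold change 0.86, SE 0.240, limma adjusted p = 0.0321). Its normalized counts were 29.8, 27.7 and 41.0 in shControl and 73.8, 58.2 and 49.6 in shRNF25. Neither the 6 tested other sugar transporters nor the 4 other monocarboxylate carriers and chaperones held a gene that met both criteria, basigin (BSG), the chaperone of MCT1 and MCT4, included (-0.18, limma adjusted p = 0.264).

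Of 10 genes of pyruvate entry and pyruvate dehydrogenase, PDP1, the phosphatase that reverses the kinases, was the 1 that fell (3411, 3431 and 2966 against 2047, 1868 and 1945; log2 fold change -0.74, limma adjusted p = 0.00156). The phosphatase PDP1 was therefore lower together with the kinases PDK1, PDK3 and PDK4. Of 18 other glycogen genes, 0 fell and 1 rose, PYGB, the brain-type glycogen phosphorylase that releases glucose-1-phosphate. PYGB had 5162, 7902 and 8585 normalized counts in shControl and 15862, 14527 and 15089 in shRNF25 (1.10, SE 0.178, limma adjusted p = 0.00296). The opposite movement of GYS1 and PYGB held in every library, while the liver phosphorylase PYGL was lower with a smaller fold (-0.35, limma adjusted p = 0.0272).

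In the routes that branch off, 1 of 10 pentose phosphate genes fell (PRPS2, which makes phosphoribosyl pyrophosphate, -0.69, limma adjusted p = 0.00259). The hexosamine list had 1 of 7 genes lower (UAP1, which makes UDP-N-acetylglucosamine, -0.60, limma adjusted p = 0.0102). Single genes in lists of this size are near the 7.1% of all tested genes that were lower. None of 17 citric acid cycle genes met both criteria. Of these, 4 (CS, IDH3G, DLST and MDH2) were lower at a limma adjusted p below 0.05 with a smaller fold. At that p with no fold limit, 10.8% of all tested genes were lower. The medians of these lists lay between -0.14 and -0.07, against -0.50 for the 32 genes.

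Among 12 regulators of hypoxia and glucose sensing, 1 fell and 2 rose, where 7.1% of all tested genes were lower and 8.65% higher. MYC, a transcription factor that drives many glycolytic genes, had 7364, 5884 and 6874 normalized counts in shControl and 3664, 4256 and 4029 in shRNF25 (-0.75, limma adjusted p = 0.00269). The glucose-responsive factor MLXIPL (ChREBP) and its target TXNIP, which restrains glucose uptake, were higher by 0.76 and 0.65 (limma adjusted p = 0.0089 and 0.00488). HIF1AN, a hydroxylase that inhibits HIF, was higher without overlap but with a smaller fold (0.34, limma adjusted p = 0.0495). The transcripts of HIF1A (-0.20), EPAS1 (-0.25), ARNT (-0.33) and VHL (-0.04) overlapped between the groups, with limma adjusted p from 0.164 to 0.835.

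The list of HIF targets outside glycolysis had 8 of 11 tested genes lower and 0 higher, with a median log2 fold change of -1.25. Of all tested genes, 7.1% were lower and 8.65% higher by the same criteria. EGLN3 (-0.66), ANKRD37 (-0.53) and CA12 (0.04) did not pass (limma adjusted p = 0.0796, 0.172 and 0.924). CA9, with 1.85 to 50.7 normalized counts, was not tested. The largest falls were in NDRG1 (-2.76), BNIP3 (-1.61), VEGFA (-1.58), BNIP3L (-1.41) and P4HA1 (-1.30), genes of stress response, mitophagy, blood vessel growth and collagen hydroxylation, each with a limma adjusted p of at most 0.000176. The list was assembled with earlier results of these libraries known, so its count is a description beside that of the glycolysis genes. Whether the falls share a cause was not tested.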

How the data were processed

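RNA-seq libraries of SW839 cells (3 shRNF25, 3 shControl) were used. According to the methods, ribosomal RNA was depleted and a stranded library kit was used; the submitters' processing notes name fastp, HISAT2, HTSeq and GRCh38, while the annotation and the strand setting are not given in the sources used here. The authors deposited a normalized count per gene and library, a signal equal to reads divided by a size factor. Whole reads were recovered for 100% of values (tolerance 0.01 reads), and the factors equaled DESeq2's median-of-ratios factors.

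Values were analysed as log2(normalized count + 1) for genes with at least 10 in at least 3 libraries, with limma 3.58.1 under R 4.3.3 (lmFit and trended eBayes, group as the only term); p-values were adjusted by Benjamini-Hochberg over all 16554 tested genes. Fold changes are on the log2(value + 1) scale and SE is limma's moderated error. The p-values set each difference against the spread between these libraries, as moderated by limma over all tested genes. Alternatives were pseudocounts of 5 and 0.5, other filters and scalings, edgeR 4.0.16 and DESeq2 1.42.0 on recovered reads, library weights, the replicate number as a block, other fold limits and each library left out. The procedure was tested on simulated data.

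All 33 genes are accounted for; library values are given for genes that were called or lead their step, and of the neighbouring lists at most 5 called genes are named. Other names, such as BSG, PYGL, HIF1AN and the HIF subunits, were chosen after their values were seen. The gene list, the neighbouring lists and the isozyme pairs were chosen with earlier results of these data known. Gene positions, exon lengths and shared words come from GENCODE 29 (GRCh38), matched by symbol. Intervals cover the spread between libraries only.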

Additional observations from a re-analysis of the deposited data

How the results depend on the processing

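The count of genes that fell was 12 under the deposited scaling, 4 under scaling to total reads (chosen after the data had been seen), 19 with no fold limit and 3 at a fold of at least 2. It was 10 under quantile normalization and 12 with every other filter, pseudocount, scaling, weighting or tool tried, edgeR and DESeq2 included, and 0 genes rose in any of them. When single libraries were left out the count ran from 8 (without shRNF25 replicate 1) to 16 (without shControl replicate 1). With the replicate number as a term (replicate block) it was 12, and 20 with no fold limit; same-numbered libraries did not deviate together (correlations -0.06, -0.09 and 0.05), so the numbers do not pair the samples. The 17 alternatives for each of the 32 genes were also added up by direction and by an adjusted p below 0.05, with no fold limit. By that rule 469 values kept their direction and side of the p threshold, 53 no longer passed it, 14 newly passed it and 8 changed sign. A gene that lost only the fold limit is therefore among the 469. These 8 were GAPDH (0.0455) and ENO1 (0.125) under quantile normalization, LDHB (0.142), SLC16A1 (0.0669) and PDK2 (0.00204) under total reads, PFKM without shControl replicate 1 (range over single libraries left out, -0.24 to 0.252), and LDHB without shControl replicate 2 or shRNF25 replicate 2 (range -0.207 to 0.0876); the cause was not tested. The 7 isozyme pairs without overlap kept their direction with a pseudocount of 5 and without each library in turn. Of the 12 genes that fell, BPGM, GYS1, PDK3 and PGK1 lost only the fold limit under total reads, while ALDOA, ALDOC, PFKFB4 and PDK4 also lost the adjusted p (0.0539, 0.0779, 0.0624 and 0.0642, limma). LDHB (50 to 81 reads) and PDK4 (94 to 215 reads) rested on the fewest reads of the 32 genes; the part of depth in these results was not tested.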
